A study of Mus musculus with 11 samples.

Results

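The subject is a set of 10 genes that move or store iron or bind metal ions, measured in the S3 segment of the mouse kidney proximal tubule: Slc39a14, Slc39a8, Slc11a2, Tfrc, Trf, Fth1, Slc40a1, Heph, Mt1 and Mt2. The genes were chosen by name. A gene counted as measured if the array held a probe set annotated with its symbol alone, which was true of 9 of the 10. Trf, the iron carrier transferrin, had only a probe set annotated to a second gene as well, so no value is given for it. Each of the 9 had 1 such probe set, and the array held 22180 genes with at least 1. The comparison set 6 arrays from wild-type mice (THP+/+, or WT) against 5 arrays from mice without Tamm-Horsfall protein (THP -/-), all of strain 129/SvEv and with no treatment named. The labels name no promoter, clone or pool. Tamm-Horsfall protein, or uromodulin, is the product of Umod, a gene of the thick ascending limb, which runs beside S3. The labels give 2 batches without saying what a batch was. Batch 1 held 5 wild-type and 3 knockout arrays, and batch 2 held 1 wild-type and 2 knockout arrays. The sources used here do not give age, sex or the way the tubules were taken. They also do not say that each array was a separate animal, so p-values measure the spread between arrays, which may be technical.

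Proximal tubule cells take up filtered iron, either bound to transferrin or as free divalent metal, keep it in ferritin and return it to the blood through ferroportin. Free iron catalyses the formation of reactive oxygen species from peroxide, and ferritin limits that by storing iron in an oxidised form. Metallothioneins are small cysteine-rich proteins that bind zinc and copper and are induced by metals, glucocorticoids and oxidative stress. The series title names circulating uromodulin, systemic oxidative stress and TRPM2. For these genes the question is whether metal handling transcripts differ when uromodulin is missing.

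Array medians lay between 3.85 and 4.01 on the log2 scale, and correlations between arrays over all 41345 probe sets ran from 0.901 to 0.955. Umod itself was lower in knockout by a batch-adjusted log2 difference of -1.52 ± 0.24 (SE), reading 5.27 to 6.74 on wild-type and 3.68 to 5.27 on knockout arrays, with an exact permutation p of 0.00595. Its adjusted p in limma was 0.281, and no source used here says whether the probe set lies inside the deletion. Markers of the S1 and S2 segments, which precede S3, ran lower in knockout in 11 of 13 genes, S3 markers ran higher in 12 of 15, and thick ascending limb markers other than Umod ran higher in 10 of 12. Over all genes 53.4% ran higher, as did 59.6% of those with a mean above the median of all probe sets. The exact permutation p of the mean of each list was 0.226 for S1 and S2, 0.226 for S3 and 0.345 for the thick ascending limb. Knockout replicate 4 had the highest mean of the thick ascending limb markers, 7.05, with knockout replicate 3 next at 5.91. The mean of the S3 markers minus that of the S1 and S2 markers, here the segment score, ran from 0.16 to 1.71 in wild type and from 0.593 to 2.30 in knockout, so the groups overlapped. Of the S3 markers 14 of 15 had a mean above the median of all probe sets, as had 13 of 13 S1 and S2 markers and 12 of 12 thick ascending limb markers. So had 12 of 15 distal tubule and collecting duct markers, 9 of 10 endothelial markers and 12710 of all 22180 genes. No detection calls were used, so whether neighbouring segments gave signal beside S3 was not tested. In bulk tissue of this kind, fewer cells of a type and less RNA per cell cannot be told apart.

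None of the 9 genes differed between genotypes past an adjusted p of 0.05 in limma, a threshold that 0 of the 41345 probe sets (0%) passed. At an unadjusted p under 0.05 there was 1 of the 9, Slc39a14, higher in knockout, beside 5.64% of all genes in either direction and 3.64% in that direction. The groups overlapped for each of the 9. Over all genes 0.627% had groups that did not overlap, with 0.433% higher and 0.194% lower in knockout. Of the 9 genes, 6 had a fitted difference above 0 and 3 below, with a median log2 difference of 0.06 beside 0.01 over all genes. Over all genes 53.4% had a fitted difference above 0.

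**Figure D1:**
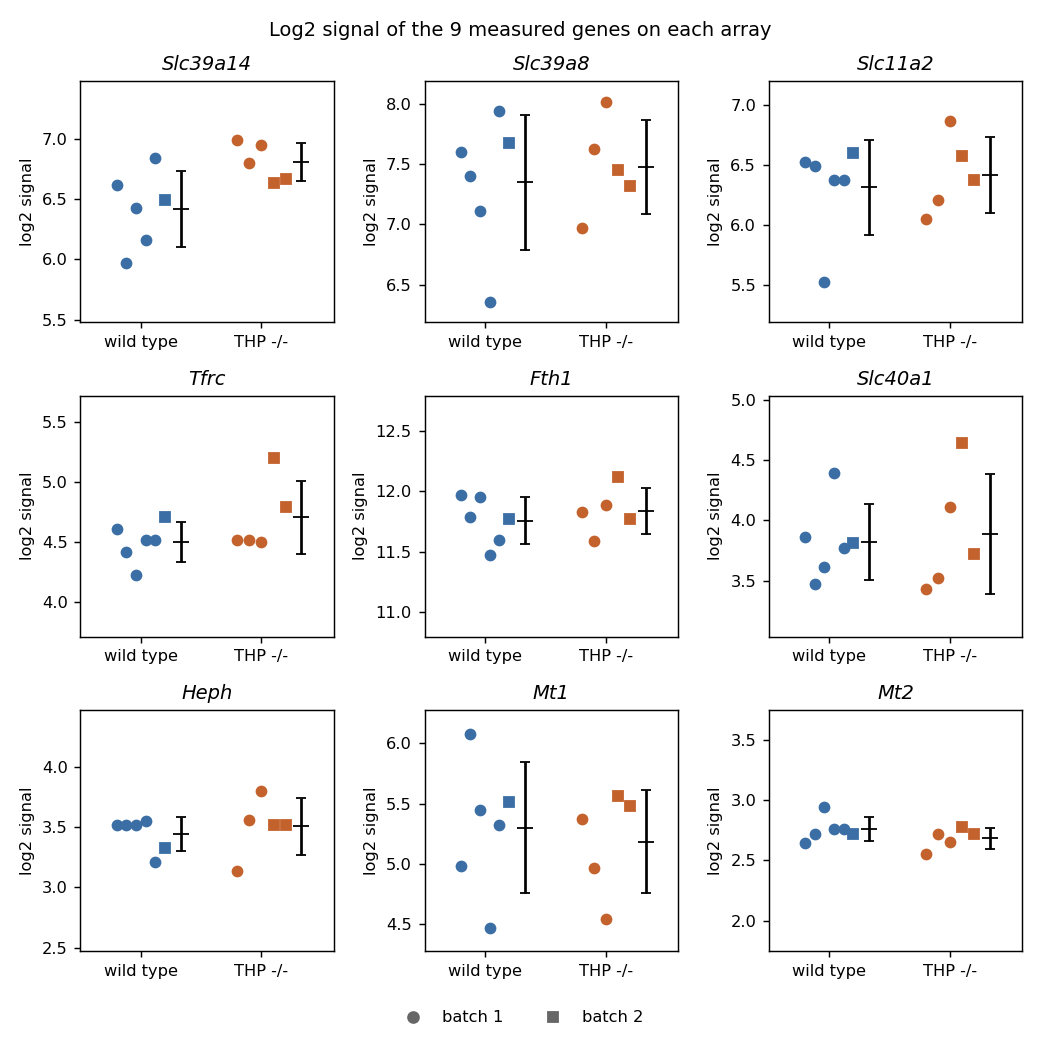
Log2 signal (vertical axes, each spanning 2 log2 units) of the 9 measured genes in 6 wild-type (blue) and 5 THP -/- (orange) arrays, with circles for batch 1 and squares for batch 2; black bars are the mean ± SD. The groups overlap in every panel, and only for Slc39a14 do all 5 knockout arrays lie above the wild-type median.

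Slc39a14, also called ZIP14, is a plasma membrane and endosomal carrier that brings free divalent iron, zinc and manganese into cells. Its log2 signal was 6.62, 5.97, 6.43, 6.16, 6.84 and 6.49 on wild-type replicates 1 to 6. On knockout replicates 1 to 5 it was 6.99, 6.80, 6.95, 6.63 and 6.67. All 5 knockout arrays exceeded the wild-type median of 6.46, but wild-type replicate 5 read above 3 of them. The wild-type mean was 6.42 ± 0.314 (SD, n = 6). The knockout mean was 6.81 ± 0.161 (SD, n = 5). The batch-adjusted log2 difference was 0.42 ± 0.17 (SE), or 1.34-fold, with a 95% interval from 1.04-fold to 1.72-fold. Before adjustment its limma p was 0.0286, and after Benjamini-Hochberg adjustment over all probe sets it was 0.774, with 0.555 to 0.998 over the other settings. A two-sided exact permutation test of genotype within batches, 1 of 9 such tests, gave p = 0.0417, where the 168 arrangements allow no p below 0.00595. The difference was 0.51 within batch 1 and 0.16 within batch 2. The direction held under all other settings, with values from 0.28 to 0.57, but without wild-type replicate 4 or knockout replicates 1 or 3 the unadjusted p rose to 0.0526, 0.0767 and 0.0700. Quantile normalization gave 0.33 with an unadjusted p of 0.0897. The value of 0.57 came with the replicate block, where only replicates 1 to 3 of each genotype, all in batch 1, set the difference.

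Slc39a8, or ZIP8, is the closest relative of ZIP14 and carries the same metals. It read 7.60, 7.40, 7.11, 6.36, 7.94 and 7.68 on wild-type replicates 1 to 6. Knockout replicates 1 to 5 read 6.97, 7.63, 8.02, 7.45 and 7.32. Of the 5 knockout values 4 lay inside the wild-type range, with wild-type replicate 4 the lowest array and knockout replicate 3 the highest. The batch-adjusted log2 difference was 0.11 ± 0.29 (SE), with an interval from 0.694-fold to 1.69-fold. The exact permutation p was 0.756 and the adjusted limma p 0.963. The difference was 0.26 within batch 1 and -0.295 within batch 2, and it turned to -0.06 without wild-type replicate 4 and to -0.08 without knockout replicate 3. Its spread between arrays after genotype and batch were fitted was 0.518 (residual SD), at percentile 95.8 of all genes, whose median was 0.244.

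Signal of both ZIP genes was higher on arrays with a higher segment score, a relation examined after the data were seen. For Slc39a8, Pearson's r over 11 arrays was 0.704 (permutation p = 0.0166, 0.147 after Benjamini-Hochberg over the 9 genes). Spearman's rho was 0.764 (permutation p = 0.00853, adjusted 0.0768). With genotype and batch means removed r was 0.803 (permutation p = 0.00246, adjusted 0.0221). That permutation did not allow for the means fitted beforehand, so both of these p-values can be too low. Within batch 1 r was 0.781, and without the arrays farthest from the median score, knockout replicate 2 and wild-type replicate 5, it was 0.797. The array with the lowest score, wild-type replicate 4 at 0.16, was also the one with the lowest Slc39a8 signal. For Slc39a14 r was 0.643 (permutation p = 0.0328, adjusted 0.147), rho was 0.673 (permutation p = 0.0278, adjusted 0.125), and r was 0.679 within batch 1 and 0.682 without those arrays. With genotype and batch means removed it was 0.511 (permutation p = 0.107, adjusted 0.483). The other 7 genes had r between -0.22 and 0.199 over the 11 arrays, and the lowest permutation p of those r was 0.512. Without the same arrays, Fth1 had r = 0.693 (permutation p = 0.0391), in place of -0.06 over all 11. Neither ZIP gene is on the S3 or the S1 and S2 marker list.

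With the segment score as a covariate, the Slc39a14 difference was 0.28 ± 0.18 (SE), with an unadjusted limma p of 0.151 and an adjusted p of 0.916. The Slc39a8 difference turned from 0.11 to -0.31 ± 0.22 (SE), with an unadjusted p of 0.198 and an adjusted limma p of 0.926. A covariate for the thick ascending limb score left the Slc39a14 difference at 0.44. With the erythroid score, which rests on 3 of 12 markers, it was 0.50, with an unadjusted limma p of 0.00384 and an adjusted p of 0.555. Those markers were Slc4a1, Epb42 and Klf1, and only Slc4a1 had a mean above the median of all probe sets. Slc4a1 is on the distal tubule and collecting duct list too, so what this score tracks is uncertain. Slc39a8 is also on the list of thin limb markers, of which 8 of 10 were measured, and with the score of the other thin limb markers as a covariate its difference was -0.07. With that covariate the Slc39a14 difference was 0.35, with an unadjusted limma p of 0.0615 and an adjusted p of 0.892. The thin limb and S3 lists share a marker, so their scores are not independent.

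**Figure D2:**
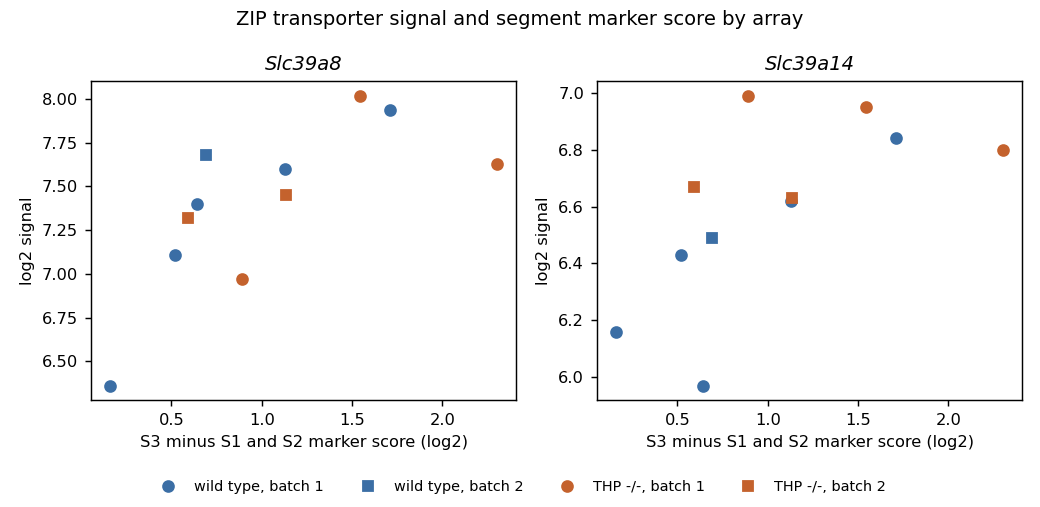
Log2 signal of Slc39a8 (left) and Slc39a14 (right) against the segment score, the mean log2 signal of S3 markers minus that of S1 and S2 markers, with 1 point per array (blue wild type, orange THP -/-, circles batch 1, squares batch 2). Arrays with a higher score have higher signal in both panels, with r = 0.704 for Slc39a8 and 0.643 for Slc39a14 over 11 arrays.

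**Figure D3:**
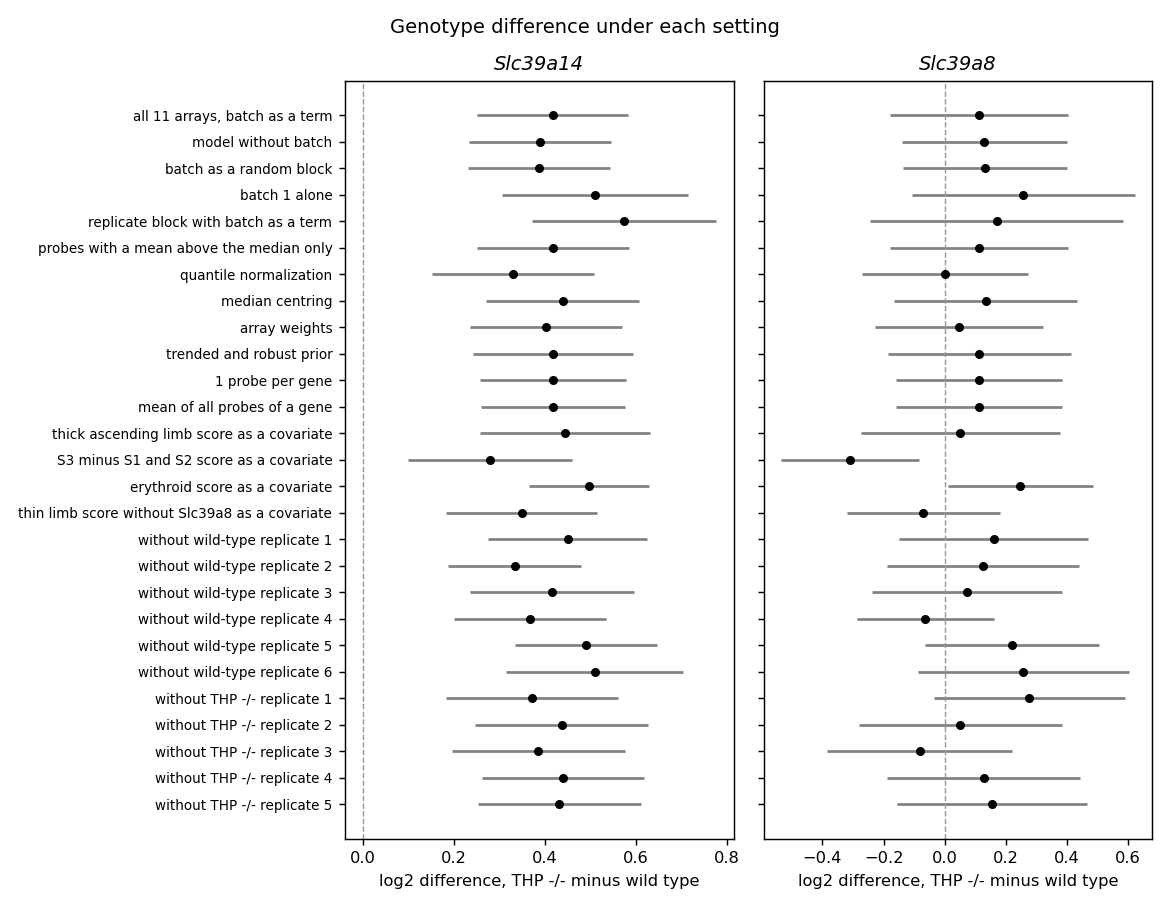
Log2 difference (THP -/- minus wild type, horizontal axes) of Slc39a14 (left) and Slc39a8 (right) under each setting, with bars of 1 SE. Batch was a fixed term except in the model without batch, with batch as a random block and in batch 1 alone. Slc39a14 stays between 0.28 and 0.57, while Slc39a8 falls on both sides of 0. With the replicate block only replicate numbers with both genotypes in batch 1 set the difference.

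Slc11a2 encodes DMT1, the proton-coupled divalent metal transporter that moves iron out of endosomes and across apical membranes. Wild-type replicates 1 to 6 read 6.52, 6.49, 5.53, 6.37, 6.37 and 6.60. Knockout replicates 1 to 5 read 6.05, 6.21, 6.86, 6.57 and 6.37. Wild-type replicate 3 stood 0.84 below the next wild-type array, and the other 5 lay within the knockout range. The log2 difference was 0.05 ± 0.22 (SE), with an interval from 0.746-fold to 1.44-fold. Its adjusted limma p was 0.979 and its exact permutation p 0.821. It was 0.12 within batch 1 and -0.13 within batch 2. It turned to -0.08 without wild-type replicate 3, to -0.13 without knockout replicate 3 and to -0.03 with quantile normalization.

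Tfrc, the transferrin receptor that brings in transferrin-bound iron, read 4.61, 4.42, 4.23, 4.52, 4.52 and 4.71 on wild-type replicates 1 to 6. It read 4.52, 4.52, 4.50, 5.20 and 4.79 on knockout replicates 1 to 5. The 3 highest arrays, knockout replicates 4 and 5 and wild-type replicate 6, were the 3 arrays of batch 2. Batch 2 was higher than batch 1 by 0.39 on the log2 scale, with an unadjusted limma p of 0.0141 and an adjusted p of 0.670. The genotype difference with batch as a term was 0.11 ± 0.12 (SE), with an interval from 0.903-fold to 1.30-fold. An exact permutation p of 0.351 went with an adjusted limma p of 0.897. Without the batch term it was 0.20. Tfrc kept a positive difference without each array in turn, from 0.05 to 0.15. The lower end came without wild-type replicate 6, which leaves only batch 1 to set the difference.

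Fth1 encodes the ferritin heavy chain, the subunit that oxidises iron for storage. Its wild-type arrays read 11.97, 11.79, 11.95, 11.47, 11.60 and 11.77. Its knockout arrays read 11.83, 11.59, 11.89, 12.12 and 11.77. The groups lay over each other apart from knockout replicate 4, the highest of the 11. The signal was at percentile 99.8 of its array throughout, where array signal can flatten and understate a change. The log2 difference was 0.06 ± 0.14 (SE), with an interval from 0.845-fold to 1.28-fold. The exact permutation p was 0.720 and the adjusted limma p 0.960. It was 0.01 within batch 1 and 0.175 within batch 2. A covariate for the thick ascending limb score turned it to -0.04, and knockout replicate 4 had the highest thick ascending limb score, 7.05 against 5.27 to 5.91 on the other 10 arrays. Ferritin heavy chain has processed pseudogenes of similar sequence, so the identity of its signal is less certain.

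Slc40a1 encodes ferroportin, the only known cellular iron exporter, and Heph encodes hephaestin, a copper-containing ferroxidase that works with it. Slc40a1 read 3.86, 3.47, 3.61, 4.39, 3.77 and 3.81 on wild-type replicates 1 to 6. On knockout replicates 1 to 5 it read 3.43, 3.52, 4.11, 4.64 and 3.72. Its signal lay below the array median on 8 of 11 arrays and may be at background, so its difference is left on the log2 scale. The log2 difference was -0.0013 ± 0.23 (SE), with an interval from -0.52 to 0.51. The exact permutation p was 1 and the adjusted limma p 0.999. It was -0.13 within batch 1 and 0.37 within batch 2, and ran from -0.13 to 0.11 without each array in turn. The lower end, without wild-type replicate 6, is the batch 1 value, as no other wild-type array was in batch 2.

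Heph read 3.52, 3.52, 3.52, 3.55, 3.21 and 3.33 on wild-type arrays and 3.14, 3.56, 3.80, 3.52 and 3.52 on knockout arrays. All 11 values lay below the array medians, and 5 of the 11 were the same to 2 decimals. Its log2 difference was 0.08 ± 0.14 (SE), with an interval from -0.22 to 0.38. The exact permutation p was 0.601 and the adjusted limma p 0.944. The difference was 0.04 within batch 1 and 0.19 within batch 2, and it turned to -0.017 without knockout replicate 3.

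Mt1 and Mt2 are neighbouring genes for the metallothioneins of most tissues. Mt1 read 4.98, 6.08, 5.45, 4.47, 5.32 and 5.51 on wild-type replicates 1 to 6. It read 5.37, 4.97, 4.54, 5.56 and 5.48 on knockout replicates 1 to 5. The highest and the lowest of the 11 arrays were both wild type, so the knockout values fell inside the wild-type range. The log2 difference was -0.22 ± 0.27 (SE), with an interval from 0.570-fold to 1.30-fold. Its adjusted limma p was 0.913 and its exact permutation p 0.488. It was -0.30 within batch 1 and 0.01 within batch 2. It stayed below 0 under each setting, and ran from -0.36 without wild-type replicate 4 to -0.06 without knockout replicate 3. The residual SD of Mt1, 0.476, was at percentile 94.0 of all genes.

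The Mt2 probe set was dim and nearly flat. It read 2.64, 2.72, 2.94, 2.76, 2.76 and 2.72 on wild-type arrays and 2.55, 2.72, 2.65, 2.78 and 2.72 on knockout arrays. Every value lay below the lower quartile of its array (2.85 to 3.03), and 4 of the 11 were the same to 2 decimals. Its residual SD of 0.0977 was at percentile 2.25 of all genes. The log2 difference was -0.08 ± 0.10 (SE), with an interval from -0.30 to 0.13. The exact permutation p was 0.238 and the adjusted limma p 0.907. The difference was -0.12 within batch 1 and 0.03 within batch 2. So dim a signal may be background alone, and the narrow interval then sets no bound on a change in Mt2 transcript.

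Repeated values such as those of Heph and Mt2 were common in the deposited table. Of all probe sets, 12.8% held 1 value on at least 4 arrays and 5.03% on at least 5. Tfrc held 4.52 on 4 arrays and Slc11a2 6.37 on 3. Whether repeats narrow the spread from which a standard error is estimated was not tested.

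**Figure D4:**
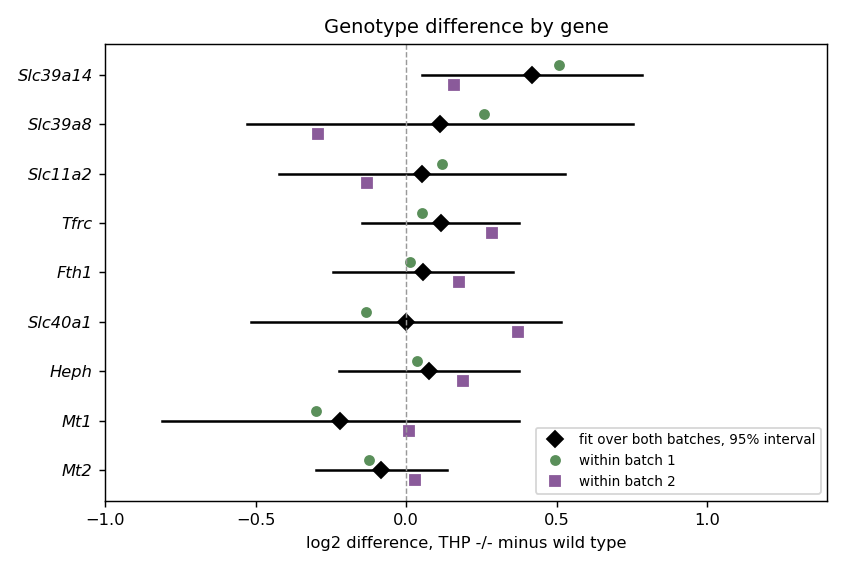
Log2 difference (THP -/- minus wild type, horizontal axis) of each gene: diamonds with lines are the fit over both batches with its 95% interval, green circles the difference within batch 1 and purple squares that within batch 2. Only the Slc39a14 interval (0.05 to 0.78) lies above 0, and 5 genes (Slc39a8, Slc11a2, Slc40a1, Mt1 and Mt2) have opposite signs in the batches.

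Genes that act as partners were compared across arrays in 5 pairs, and none passed Benjamini-Hochberg adjustment over the 5. Mt1 and Mt2 had r = 0.185 (permutation p = 0.594) and rho = 0.210 (p = 0.534). Signal of Mt2, Heph and Slc40a1 may be at background, so r in their pairs cannot show whether the transcripts vary together. The storage and export pair Fth1 and Slc40a1 had r = 0.199 (permutation p = 0.556) and rho = 0.182 (p = 0.590), turning to r = -0.31 within batch 1. The exporter and its ferroxidase, Slc40a1 and Heph, had r = 0.379 (permutation p = 0.249) and rho = 0.353 (p = 0.289). For the uptake pair Tfrc and Slc11a2, r was 0.495 (permutation p = 0.129) and rho 0.352 (p = 0.288), with r = 0.686 within batch 1 (permutation p = 0.0848), and r = 0.0515 once knockout replicate 4 and wild-type replicate 3 were left out. For the pair of ZIP genes r was 0.470 (permutation p = 0.144) and rho 0.373 (p = 0.261), with r = 0.507 within batch 1 (permutation p = 0.202), r = 0.527 with genotype and batch means removed (permutation p = 0.0970), and r = 0.0342 without wild-type replicate 4 and knockout replicate 3. Adjusted permutation p for r ran from 0.359 to 0.594.

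The genes with the pattern most like a member's were found by Pearson's r over the 11 arrays, after each batch's mean was subtracted, among 22179 other genes. For Mt1 these were Zc3h7b (0.952), Snhg20 (0.939) and Olfr316 (0.931). For Mt2 they were Siah2 (0.944), Zfp316 (0.915) and Capsl (0.914). For Slc39a14 they were the splicing factor Phf5a (0.941), the neuronal enolase Eno2 (0.940) and Armc8 (0.938). These are the highest values of a very large number and come without a test. Mt1 was not among the genes closest to Mt2, nor Mt2 among those closest to Mt1. The Mt2 signal may be background alone, so this search cannot show whether the metallothionein transcripts vary together.

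The other genes of metal handling were grouped in 5 lists, and 0 of their members passed the limma threshold over all probe sets. Beside the counts of all 5 lists, 5.64% of all genes had an unadjusted limma p under 0.05 and 53.4% ran higher. Of 20 measured genes for other steps of iron uptake and transport, 13 ran higher and 7 lower, with a median log2 difference of 0.06. Steap3, the endosomal reductase that readies iron for DMT1, was the 1 gene at an unadjusted limma p under 0.05. Its difference was 0.32 ± 0.14 (SE), with an adjusted limma p of 0.804. Next came the lysosomal cation channel Mcoln1 (0.28) and the mitochondrial iron carrier Slc25a28 (0.31). Of 22 genes of iron storage and regulation, 15 ran higher and 7 lower, with a median of 0.09 and 0 at an unadjusted p under 0.05. Those with the smallest p were the iron chaperone Pcbp1 (0.29), the bone morphogenetic protein receptor Bmpr1a (0.22) and Aco1, the iron regulatory protein that doubles as an aconitase (0.17).

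Of 37 genes for haem and iron-sulphur clusters, 29 ran higher and 8 lower, with a median log2 difference of 0.14. At an unadjusted p under 0.05 there was 1, the mitochondrial chaperone Hspa9, at 0.35 ± 0.13 (SE) with an adjusted limma p of 0.769. Ciao1, of the cytosolic iron-sulphur assembly machinery, was at 0.39 ± 0.18 (SE), and Hmox1, the inducible haem oxygenase that releases iron, at 0.35 ± 0.17 (SE), with an adjusted limma p of 0.823. Hmox1 means were 4.24 in wild type and 4.67 in knockout, and its difference was 0.45 within batch 1 and 0.06 within batch 2. Of 27 other metallothionein and zinc genes 19 ran higher and 8 lower, with a median of 0.10. Slc30a6, a zinc carrier of the secretory pathway, had the smallest p of all 5 lists, at 0.50 ± 0.18 (SE) with an adjusted limma p of 0.758. Mcoln1, which is on this list too, and the ZIP family member Slc39a11 (0.36) followed. Of 17 copper and manganese genes 15 ran higher and 2 lower, with a median of 0.16, and 0 had an unadjusted p under 0.05. Atp2c1, a Golgi calcium and manganese pump, was at 0.31, the copper transporter family member Slc31a2 at 0.26 and Atp13a1 at 0.25.

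Among the 12710 genes with a mean above the median of all probe sets, the median log2 difference was 0.05 and 59.6% were above 0, beside 53.4% of all genes. The bright members of the lists had medians of 0.17 for iron uptake and transport, 0.12 for iron storage and regulation, 0.15 for haem and iron-sulphur clusters, 0.11 for zinc and 0.19 for copper and manganese. Leaving out knockout replicate 3 brought the copper and manganese median from 0.16 to 0.0036 and that for zinc from 0.10 to 0.04. That array had the second highest segment score of the knockout arrays, 1.54. Knockout replicate 2 had the highest, 2.30. Leaving it out raised the haem and iron-sulphur median from 0.14 to 0.23 and that for iron storage and regulation from 0.09 to 0.13. The cause of these shifts was not tested. With the segment score as a covariate the medians were 0.026 for copper and manganese, 0.057 for zinc, 0.11 for haem and iron-sulphur clusters, 0.15 for iron storage and regulation and 0.035 for iron uptake and transport. A covariate for the thick ascending limb score gave 0.031, 0.017, 0.081, 0.046 and 0.052 in the same order.

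**Figure D5:**
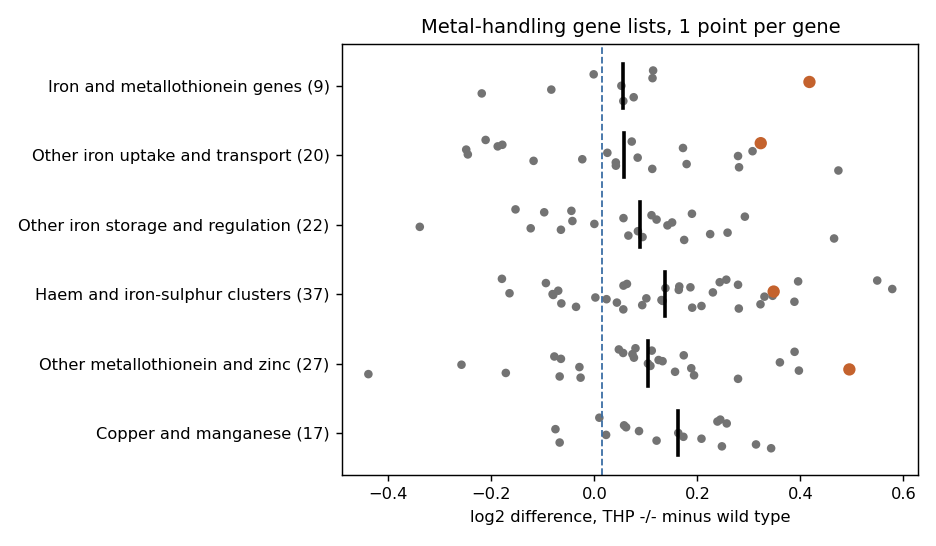
Log2 difference (THP -/- minus wild type, horizontal axis) of every measured gene of the 9-gene set and of 5 wider lists, with the number measured in brackets. Black bars are list medians, from 0.06 to 0.16, the dashed line is the median of all genes at 0.01, and the 4 larger orange points (Slc39a14, Steap3, Hspa9 and Slc30a6) have an unadjusted p under 0.05.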

How the data were processed

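Total RNA of 11 S3 tubule samples was extracted (Arcturus PicoPure) and, per the labels' protocols, labelled by the Affymetrix WT Pico method for very small amounts. The deposited log2 values were made with Partek 6.6 and RMA, per the submitters' processing notes. Since RMA makes arrays alike in distribution, changes shared by most genes can shrink. No detection calls were used, and precision is limited by the number of arrays.

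Probe sets were named from the platform annotation, and 23521 of 41345 had 1 symbol. For each gene the probe set with the highest mean was kept. All probe sets entered 1 linear model with terms for genotype and batch (lmFit and eBayes of limma 3.58.1, R 4.3.3, two-sided, Benjamini-Hochberg over all probe sets, threshold 0.05, no filter on dim probe sets). On simulated data with independent noise and no batch effect, the mean estimates of the fit were close to the changes put in. Those changes were larger than any member's difference, so detection of changes as small as the members' was not examined. Single genes were also tested by two-sided exact permutation of genotype within batches. Correlations used 100000 permutations. Where genotype and batch means were removed first, the permutation did not allow for the fitted terms, so those p-values can be too low. A marker score is the mean log2 signal of a list. Plots used matplotlib 3.10.9.

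The members and lists were chosen with earlier results of these data known. The named genes were the members, Umod, up to 3 genes with the smallest p per list and the 3 genes most like Mt1, Mt2 and the member with the smallest p. Other settings tried were the batch term, filters, normalization, weights, priors, covariates, the replicate block and each array left out. No genome positions or sequences are given.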

Additional observations from a re-analysis of the deposited data

Results flagged for a closer look

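Of 18 groups of arrays (9 genes in 2 genotypes), 1 held an array far from the rest by Dixon's criterion, which chance meets in about 1 group in 20. It was Slc11a2, the gene of the metal transporter DMT1, at 5.53 on wild-type replicate 3, where the nearest wild-type array read 6.37 and the highest 6.60. Without that array the Slc11a2 log2 difference was -0.08 in place of 0.05. The same array held the lowest Tfrc value, 4.23, and the highest Mt2 value, 2.94, and its other values lay inside the range of the other wild-type arrays.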

How the results depend on the processing

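No member passed the adjusted threshold under any setting run, and the smallest adjusted limma p of any member over all settings was 0.555. That value was for Slc39a14 with the erythroid score, which rests on 3 markers. Slc39a14, Mt1, Mt2 and Tfrc kept their direction under every setting. Slc40a1, at -0.0013, turned to 0.066 without the batch term, to 0.073 with batch as a random block, to 0.04 with the replicate block, to 0.0043 with quantile normalization, to 0.020 with median centring, to 0.055 with array weights and to 0.028 with the segment score. With the replicate block Fth1 turned to -0.13 and Heph to -0.02. That setting takes the genotype difference only from replicate numbers 1 to 3, which have both genotypes in batch 1. Slc11a2 turned to -0.034 with quantile normalization and to -0.054 with the segment score, Fth1 to -0.041 with the thick ascending limb score, and Slc39a8 to -0.31 with the segment score and to -0.070 with the thin limb score, a setting chosen after seeing the data. The cause of these turns was not tested. Without each array in turn the differences ran from -0.13 to 0.11 for Slc40a1, -0.13 to 0.15 for Slc11a2, -0.017 to 0.21 for Heph and -0.082 to 0.28 for Slc39a8. Leaving out wild-type replicate 6 leaves only batch 1 to set the difference, which gave the lower end for Slc40a1. Members at an unadjusted p under 0.05 numbered 0 with quantile normalization, the segment score or the thin limb score, and 0 to 1 without each array. Over all probe sets the shares at that threshold were 6.31%, 5.66% and 5.67% in those settings, and 5.07% to 7.29% without each array. Members whose groups did not overlap numbered 0 to 1, the 1 being Slc39a14 without wild-type replicate 5. That array was the only wild-type array above any knockout value, so leaving it out was bound to separate the groups. The share over all genes was not computed for that setting. Probe sets past the threshold numbered 3 in batch 1 alone, 1 with 1 probe set per gene, 1 with the mean of all probe sets, and 0 to 11 without each array. The filter on dim probe sets removed Mt2, Heph and Slc40a1. The correlation of Fth1 and Slc40a1 was -0.31 in batch 1 alone. Arrays with the same replicate number did not pair: their deviations correlated between -0.12 and 0.10, and 0 of 5 wild-type arrays matched best with the knockout array of their number. With the replicate block Slc39a14 was at 0.57 with an adjusted limma p of 0.998, and 0 probe sets passed. Background in Mt2, Heph and Slc40a1 limits what their intervals show.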
